A study of Homo sapiens with 18 samples.

Results

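Microtubules are polymers of alpha- and beta-tubulin, and the mRNAs of both are subject to autoregulation: when free tubulin rises, the tubulin mRNAs that are being translated are degraded. The factor that starts this decay is TTC5, which binds the first residues of a nascent tubulin chain as it leaves the ribosome. It acts through SCAPER, an adaptor that brings in the CCR4-NOT deadenylase. The genes described here are 4 alpha-tubulins (TUBA1A, TUBA1B, TUBA1C, TUBA4A), 5 beta-tubulins (TUBB, TUBB2A, TUBB3, TUBB4B, TUBB6) and TTC5. They were taken by gene symbol, and all 10 were among the 17017 genes of the deposited table.

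The libraries were made from MDA-MB-231, an established line of triple-negative breast carcinoma. Cells received lentiviral particles with a scramble control hairpin or a hairpin against the mRNA of fibrillarin (FBL), the enzyme that places 2'-O-methyl groups on ribosomal RNA, and were selected with puromycin. Treatment labels were SC, read here as the scramble control, SH2 and SH3. Which of SH2 and SH3 is knockdown 1 and which knockdown 2 is not given in the labels. All groups were treated with cycloheximide, which arrests elongating ribosomes, before lysis. Each treatment had 3 libraries of input cytoplasmic RNA (IN) and 3 of ribosome-protected footprints (RPF), 18 in all. Whether replicates were separate cultures is not stated, so the p-values measure the spread between these samples, which may be technical.

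IN libraries held 23469830 to 27629488 counts and RPF libraries 1662705 to 6098648, with the highest RPF totals in SC replicates 1 and 3 and the lowest in SH3 replicate 1. FBL, the targeted gene, stood at 388 ± 36.4 CPM (TMM-scaled) in RNA of SC, at 5.67 ± 5.09 with hairpin SH2 and at 3.49 ± 0.612 with hairpin SH3 (mean ± SD, n = 3 each). Of the markers set for the line, VIM, CD44, AXL, CAV1, KRT8 and KRT18 were present, with SC means from 163 CPM (CAV1) to 5579 CPM (VIM). ESR1 and PGR had at most 2 counts in any IN library and CDH1 at most 11. ERBB2 stood at 95.3 ± 8.54 CPM in SC and EPCAM at 5.66 ± 0.6704 (SD, n = 3 each).

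The sequences upstream of 4 members are shown, of which 3 fell with both hairpins, while TTC5, the decay factor, rose in SH2. They are the 250 bases before the RefSeq transcription start (GRCh38.p14), 5′ to 3′ on the strand of the gene, for members with 1 start in that table. Capitals mark CCAAT, the box bound by the factor NF-Y, and TATAA, the core of the TATA box, on either strand (ATTGG and TTATA on the other). The 2 motifs shared no bases, while in TTC5 the run TTATAA holds TATAA on both strands.
TUBA1B (chr12:49131396-49131645, minus strand): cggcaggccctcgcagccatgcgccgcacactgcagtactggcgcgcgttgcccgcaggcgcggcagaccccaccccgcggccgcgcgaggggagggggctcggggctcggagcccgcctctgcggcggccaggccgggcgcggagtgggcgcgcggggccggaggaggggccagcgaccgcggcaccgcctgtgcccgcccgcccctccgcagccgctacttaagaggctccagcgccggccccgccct
TUBA1A (chr12:49189081-49189330, minus strand): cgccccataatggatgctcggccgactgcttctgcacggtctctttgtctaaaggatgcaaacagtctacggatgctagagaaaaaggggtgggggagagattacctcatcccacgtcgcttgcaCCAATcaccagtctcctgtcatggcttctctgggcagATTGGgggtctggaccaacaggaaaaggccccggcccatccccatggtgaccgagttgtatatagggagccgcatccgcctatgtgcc
TUBB4B (chr9:137241037-137241286, plus strand): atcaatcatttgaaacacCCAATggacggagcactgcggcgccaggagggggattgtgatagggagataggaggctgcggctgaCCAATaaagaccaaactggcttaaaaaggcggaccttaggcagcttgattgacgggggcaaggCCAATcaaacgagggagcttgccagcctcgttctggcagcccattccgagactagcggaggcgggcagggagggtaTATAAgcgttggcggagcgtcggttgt
TTC5 (chr14:20305952-20306201, minus strand): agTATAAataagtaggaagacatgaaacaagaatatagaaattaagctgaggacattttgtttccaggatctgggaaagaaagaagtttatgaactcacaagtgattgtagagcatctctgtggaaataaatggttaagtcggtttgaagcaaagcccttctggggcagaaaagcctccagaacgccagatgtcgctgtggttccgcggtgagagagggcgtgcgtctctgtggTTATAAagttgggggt

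The upstream sequence of TUBB4B held 3 CCAAT boxes and 1 TATAA, that of TUBA1A 2 CCAAT boxes, that of TTC5 3 TATAA matches and no CCAAT, and that of TUBA1B neither. Of the 15 starts listed for the 10 genes, 8 had a CCAAT box, against 32.0% of 35116 upstream sequences of the same length in the table, and 6 had TATAA, against 18.9%. Among the 6 members with 1 listed start, 2 had a CCAAT box and 4 had TATAA. TUBB2A, which also fell with both hairpins, and TUBA4A are among these 6 and are not shown. Each held 1 TATAA and no CCAAT box. The count over starts is not one of separate sequences, since 2 of the TUBA1C windows overlap and share a CCAAT box, and which start these cells use was not measured. A match describes the letters only.

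RNA of most of the tubulins was lower after knockdown with either hairpin. In SH2, 8 of the 9 tubulins fell and TTC5 rose, while TUBB3 did not pass the test. In SH3, 7 of the 9 fell, and TUBA4A, TUBB3 and TTC5 did not pass. The test was edgeR's quasi-likelihood test over all 12710 genes tested, and "fell" or "rose" means a Benjamini-Hochberg adjusted p under 0.05. Of all genes tested, 61.4% passed in SH2 (30.4% lower, 31.1% higher) and 53.0% in SH3 (25.2% lower, 27.8% higher). The median log2 change of the 9 tubulins was -0.60 in SH2 and -0.82 in SH3, beside 0.012 and 0.034 over all genes tested. Since 1 set of SC libraries served for both hairpins, their changes are not independent. Changes below are given as log2 value ± SE. From RNA of whole cultures, less RNA per cell and fewer cells with the RNA cannot be told apart.

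Among the alpha-tubulins, TUBA1B and TUBA1C, the isotypes found in most cell types, fell with both hairpins. TUBA1B RNA stood at 1148, 1123 and 1249.8 CPM in SC replicates 1, 2 and 3. It stood at 469.8, 372 and 509.9 in SH2 and at 509, 516 and 526 in SH3. All 6 hairpin libraries lay below all 3 SC libraries, with SH2 and SH3 overlapping. The log2 change was -1.38 ± 0.11 (edgeR, adjusted p = 3.18e-07) in SH2, 2.604-fold lower, and -1.18 ± 0.11 (edgeR, adjusted p = 2.40e-06) in SH3, 2.27-fold lower. In SH2, 4.89% of the genes tested had a lower log2 change.

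TUBA1C RNA stood at 768, 711 and 792 CPM in the SC libraries, at 338, 297 and 341 in those of SH2 and at 345, 334 and 349.7 in those of SH3. Again no hairpin library reached an SC library. It changed by -1.22 ± 0.092 (edgeR, adjusted p = 1.61e-07) in SH2 and by -1.14 ± 0.092 (edgeR, adjusted p = 6.02e-07) in SH3. The direct comparison of SH2 with SH3 gave log2 differences of -0.20 ± 0.11 (edgeR, adjusted p = 0.172) for TUBA1B and -0.078 ± 0.091 (edgeR, adjusted p = 0.522) for TUBA1C, neither past the threshold.

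TUBA1A and TUBA4A differed between the hairpins, in opposite directions. TUBA1A, the isotype best known from developing neurons, stood at 142, 79.6 and 104 CPM in the SC libraries, at 67.4, 61.97 and 79.5 in those of SH2 and at 45.8, 39.2 and 50.5 in those of SH3. Its change was -0.64 ± 0.17 (edgeR, adjusted p = 0.00544) in SH2 and -1.26 ± 0.18 (edgeR, adjusted p = 5.13e-05) in SH3, and SH3 lay below SH2 in every library. SC replicate 1 was the highest SC library, and without it the SH2 change was -0.41, adjusted p 0.0214. TUBA4A, the alpha-tubulin whose gene encodes no terminal tyrosine, stood at 156, 99.2 and 118 CPM in the SC libraries, at 70.3, 43.6 and 59.95 in those of SH2 and at 92.2, 93.7 and 95.7 in those of SH3. It changed by -1.10 ± 0.17 (edgeR, adjusted p = 7.48e-05) in SH2 and by -0.41 ± 0.17 (edgeR, adjusted p = 0.0541) in SH3, where the groups did not overlap but the test was not passed. Called in 8 of 14 alternatives, the SH3 value passed in each of the 5 alternatives of method (adjusted p 0.0136 with the replicate block to 0.0433 with DESeq2 size factors). It was not passed without SC replicate 1, the highest SC library (-0.23, adjusted p 0.236), nor without SC replicate 3, SH2 replicate 3 or any 1 SH3 library (adjusted p 0.0584 to 0.0969). Without SC replicate 2, the lowest SC library, it was -0.55, adjusted p 0.0133, past the threshold, as was the fit without SH2 replicate 1 (-0.41, adjusted p 0.0358) or SH2 replicate 2 (-0.44, adjusted p 0.0194).

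Among the beta-tubulins, TUBB, TUBB2A, TUBB4B and TUBB6 fell with both hairpins, by 0.45 to 0.60 on the log2 scale in SH2 and by 0.46 to 1.53 in SH3. TUBB, the most widely expressed beta isotype, stood at 2343, 2101 and 2270.2 CPM in the SC libraries, at 1544, 1364 and 1752 in those of SH2 and at 1291, 1235 and 1272 in those of SH3. SC lay above SH2 and SH2 above SH3, with no overlap at either step. The change of TUBB was -0.53 ± 0.10 (edgeR, adjusted p = 0.000516) in SH2 and -0.82 ± 0.10 (edgeR, adjusted p = 2.12e-05) in SH3. TUBB4B, the other broadly expressed beta isotype, stood at 696, 709 and 776 CPM in the SC libraries, at 492, 418 and 563 in those of SH2 and at 445, 453 and 451 in those of SH3. Its SH3 libraries lay within the SH2 range and below every SC library, with changes of -0.57 ± 0.11 (edgeR, adjusted p = 0.000404) and -0.69 ± 0.11 (edgeR, adjusted p = 0.000118).

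TUBB6, a divergent beta isotype, showed the largest gap between the hairpins among the 10 genes. Its RNA stood at 301, 262 and 304 CPM in the SC libraries, at 203, 163 and 207 in those of SH2 and at 100.3, 105 and 94.02 in those of SH3. The 3 groups formed separate steps. It changed by -0.60 ± 0.11 (edgeR, adjusted p = 0.000287) in SH2 and by -1.53 ± 0.11 (edgeR, adjusted p = 2.67e-07) in SH3, 2.89-fold lower, and the difference between the hairpins was 0.94 ± 0.11 (edgeR, adjusted p = 2.10e-05). In SH3, 2.93% of the genes tested had a lower log2 change than TUBB6.

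TUBB2A and TUBB3 gave few counts. TUBB2A RNA had 395 to 750 counts per IN library and stood at 24.7 ± 5.12 CPM in SC, at 18.04 ± 2.45 with SH2 and at 17.98 ± 1.28 with SH3 (mean ± SD, n = 3). It changed by -0.45 ± 0.15 (edgeR, adjusted p = 0.0172) in SH2 and -0.46 ± 0.15 (edgeR, adjusted p = 0.0195) in SH3. Without SC replicate 1, the highest SC library, neither passed the test (-0.29, adjusted p 0.0865, and -0.29, adjusted p 0.0952). The calls were also lost without SH2 replicate 2 in SH2 (-0.35, adjusted p 0.0726) and without SH3 replicate 2 in SH3 (-0.44, adjusted p 0.0616). TUBB3, the isotype used as a marker of neurons, had 41 to 101 counts per IN library, and its changes were 0.28 ± 0.22 (edgeR, adjusted p = 0.298) in SH2 and -0.37 ± 0.23 (edgeR, adjusted p = 0.2005) in SH3. The hairpin groups of TUBB3 overlapped SC in both comparisons.

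TTC5, the decay factor, rose in SH2 and did not pass the test in SH3. Its RNA stood at 20.9, 25.01 and 25.02 CPM in the SC libraries, at 27.9, 31.7 and 30.7 in those of SH2 and at 18.4, 21.1 and 20.04 in those of SH3. SH2 lay above SC in every library, while SH3 overlapped SC at its upper end. The change was 0.35 ± 0.11 (edgeR, adjusted p = 0.0150) in SH2, a rise, and -0.25 ± 0.11 (edgeR, adjusted p = 0.0738) in SH3. Without SC replicate 1, the lowest SC library, the SH2 rise was not called (0.25, adjusted p 0.0798) and the SH3 value was called as lower (-0.35, adjusted p 0.0204). The SH3 value also passed without SH2 replicate 2 (-0.29, adjusted p 0.0405), SH2 replicate 3 (-0.29, adjusted p 0.0448) or SH3 replicate 2 (-0.33, adjusted p 0.0495), and in 4 of the 5 alternatives of method, such as the DESeq2 Wald test (-0.28, adjusted p 0.0484). SH2 and SH3 differed by 0.60 ± 0.11 (edgeR, adjusted p = 0.000928).

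**Figure D1:**
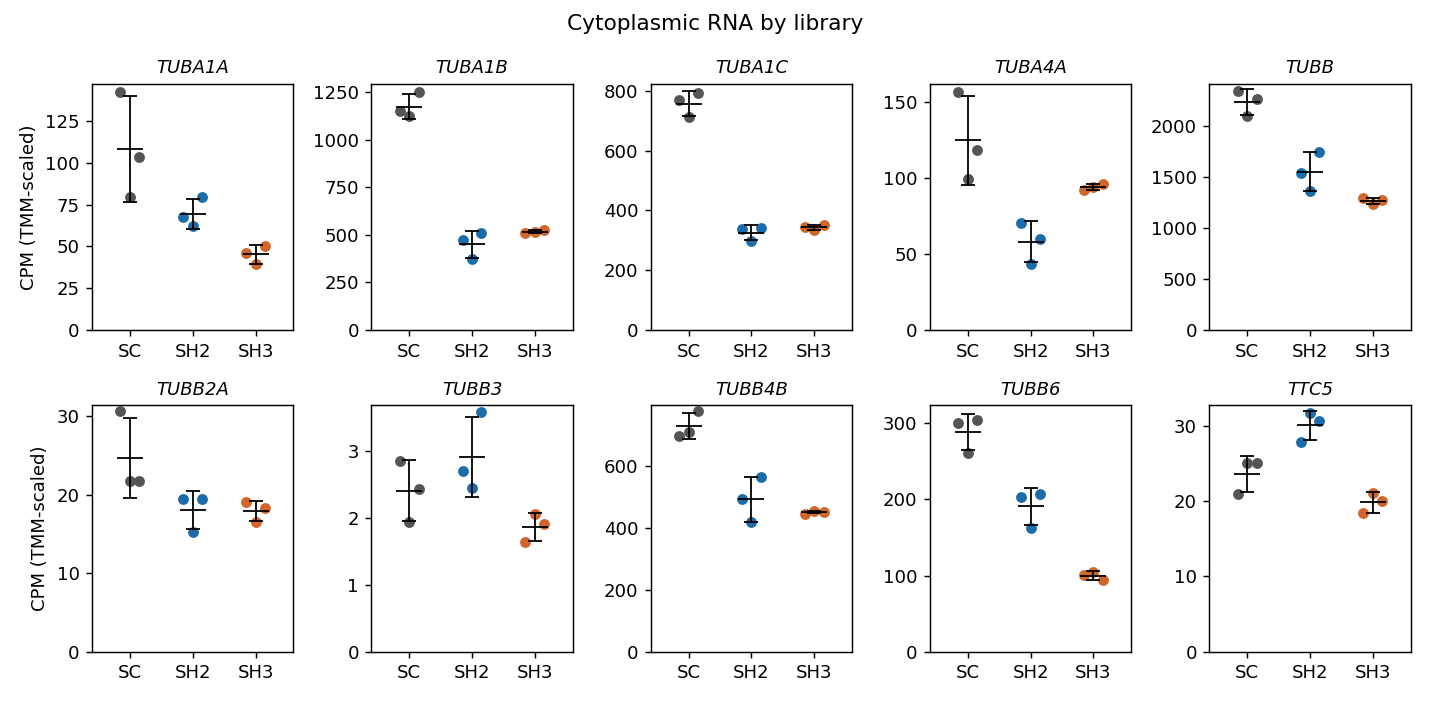
RNA of the 10 genes by library, in TMM-scaled CPM (vertical axis, linear from 0), for SC, SH2 and SH3; points are libraries and bars the mean ± SD (n = 3). TUBA1B and TUBA1C sit far below SC with either hairpin, TUBB6 falls in steps from SC to SH2 to SH3, and TTC5 is highest in SH2.

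Whether the ribosome footprints moved with the RNA was asked next. Footprints fell for 6 of the 9 tubulins in SH2 and for 7 in SH3, and those of TTC5 passed in neither. Over the 10345 genes tested, 44.2% passed in SH2 (23.2% lower, 21.0% higher) and 35.9% in SH3 (19.0% lower, 16.9% higher). The median log2 footprint change of the tubulins was -0.73 in SH2 and -0.82 in SH3, beside -0.0042 and -0.014 over all genes tested.

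TUBA1B footprints stood at 434, 536 and 705 CPM in the SC libraries, at 180.0, 272 and 328 in those of SH2 and at 228, 254 and 289 in those of SH3. They fell by 1.10 on the log2 scale in SH2 (SE 0.20, adjusted p = 0.000483 by edgeR) and by 1.12 in SH3 (SE 0.21, adjusted p = 0.000657 by edgeR). All hairpin libraries were below all SC libraries. TUBA1C footprints stood at 520.3, 539 and 604 CPM in the SC libraries, at 192, 278 and 309.8 in those of SH2 and at 344, 306 and 327 in those of SH3, also without overlap with SC, with changes of -1.09 ± 0.16 (edgeR, adjusted p = 5.90e-05) and -0.77 ± 0.16 (edgeR, adjusted p = 0.00150). TUBA4A footprints stood at 119, 193 and 166 CPM in the SC libraries, at 48.1, 59.9 and 55.4 in those of SH2 and at 87.2, 78.8 and 84.1 in those of SH3. Here both hairpins passed, at -1.53 ± 0.17 (edgeR, adjusted p = 6.57e-06) and -0.93 ± 0.17 (edgeR, adjusted p = 0.000648), and SH2 was the lowest group.

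TUBA1A was the member whose footprints separated the hairpins most. They stood at 36.9, 46.8 and 31.1 CPM in the SC libraries, at 25.9, 32.2 and 43.4 in those of SH2 and at 14.05, 13.4 and 18.2 in those of SH3. SH2 overlapped SC and SH3 lay below both. The change was -0.15 ± 0.21 (edgeR, adjusted p = 0.580) in SH2 and -1.30 ± 0.24 (edgeR, adjusted p = 0.000585) in SH3, a difference between the hairpins of 1.14 ± 0.24 (edgeR, adjusted p = 0.00282). SH3 counts of TUBA1A were 24 to 52 per footprint library.

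TUBB footprints stood at 3757, 4900.3 and 4698 CPM in the SC libraries, at 2983, 3493 and 3772 in those of SH2 and at 2295, 2404 and 2847 in those of SH3. SH2 replicate 3 lay above SC replicate 1, so these groups overlapped, and SH3 lay below both. The change was -0.38 ± 0.14 (edgeR, adjusted p = 0.0371) in SH2 and -0.82 ± 0.14 (edgeR, adjusted p = 0.000385) in SH3. The SH2 call was lost without SC replicate 2 (-0.31, adjusted p 0.103), SC replicate 3 (-0.33, adjusted p 0.122), SH2 replicate 1 (-0.28, adjusted p 0.164), SH2 replicate 2 (-0.39, adjusted p 0.0753) or SH3 replicate 2 (-0.38, adjusted p 0.0552), and with only the groups compared (-0.37, adjusted p 0.0635).

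TUBB4B footprints stood at 926, 864 and 1093 CPM in the SC libraries, at 491, 568 and 658 in those of SH2 and at 494, 551 and 610.3 in those of SH3, changes of -0.75 ± 0.14 (edgeR, adjusted p = 0.000642) and -0.80 ± 0.14 (edgeR, adjusted p = 0.000567). TUBB6 footprints stood at 205, 219 and 237 CPM in the SC libraries, at 115, 138 and 145 in those of SH2 and at 60.9, 68.1 and 66.6 in those of SH3. As in RNA, the 3 groups of TUBB6 were separate, with changes of -0.73 ± 0.13 (edgeR, adjusted p = 0.000460) and -1.75 ± 0.14 (edgeR, adjusted p = 7.32e-07). TUBB2A footprints, at 56 to 262 counts per library, changed by -0.48 ± 0.21 (edgeR, adjusted p = 0.0735) and -0.56 ± 0.22 (edgeR, adjusted p = 0.0531), neither past the threshold. Without SC replicate 3, the lowest SC library, both passed (-0.63, adjusted p 0.0353, and -0.71, adjusted p 0.0302). Both also passed in edgeR with no filter on low counts (-0.48, adjusted p 0.0465, and -0.56, adjusted p 0.0275). The SH3 value passed under the replicate block as well (-0.56, edgeR adjusted p 0.0486). TUBB3 had 7 to 36 footprint counts per library, and a change could not be resolved at this depth (-0.25 with SE 0.32 in SH2 and -0.31 with SE 0.35 in SH3).

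TTC5 footprints stood at 23.7, 18.96 and 20.1 CPM in the SC libraries, at 26.3, 25.4 and 20.4 in those of SH2 and at 14.6, 16.8 and 11.9 in those of SH3. SH2 overlapped SC, and SH3 lay below both groups. The change was 0.19 ± 0.19 (edgeR, adjusted p = 0.446) in SH2 and -0.55 ± 0.21 (edgeR, adjusted p = 0.0514) in SH3, which passed without SC replicate 2 (-0.59, adjusted p 0.0457). The libraries held 25 to 146 TTC5 footprint counts.

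**Figure D2:**
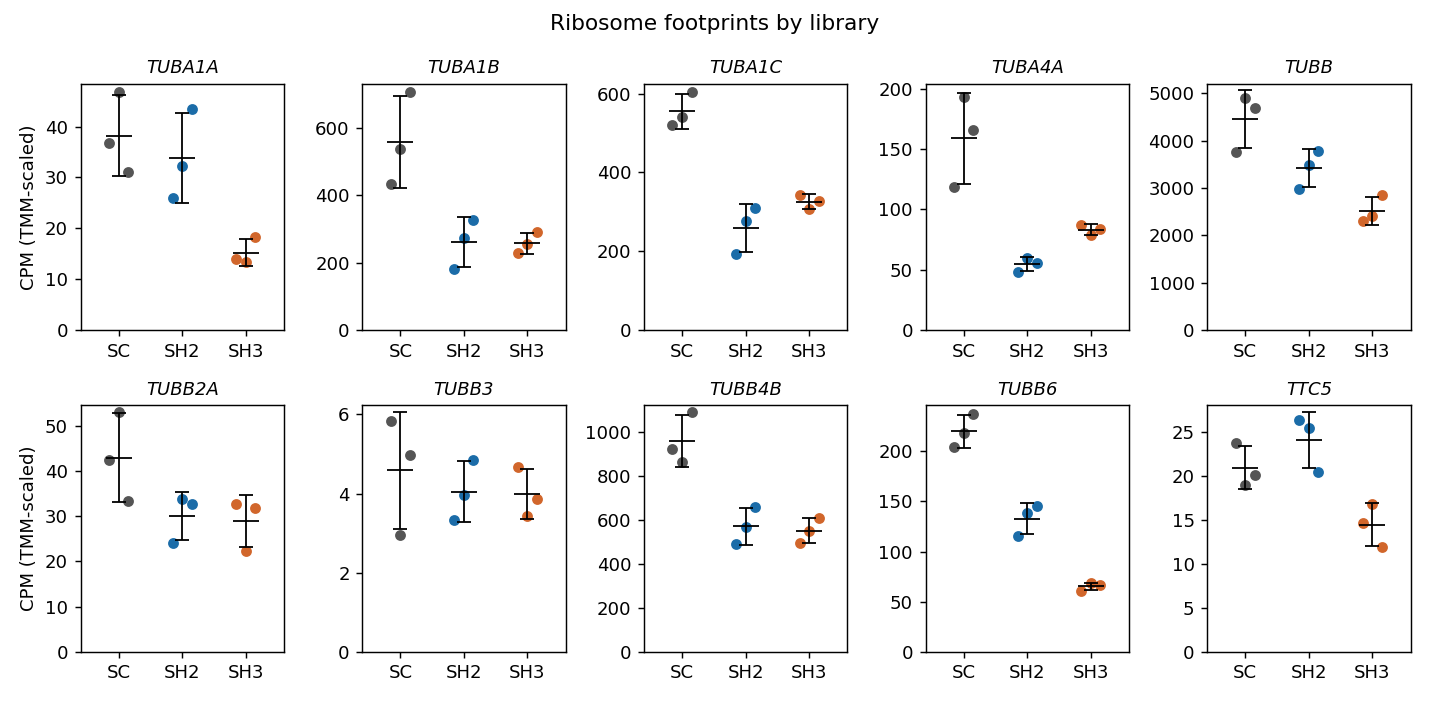
Footprints of the 10 genes by library, in TMM-scaled CPM (vertical axis, linear from 0), for SC, SH2 and SH3; points are libraries and bars the mean ± SD (n = 3). TUBA1A overlaps SC in SH2 and lies below it in SH3, while TUBA4A is lowest in SH2.

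Footprints relative to RNA, the translational efficiency, passed the test for none of the 10 genes. It was tested in 1 edgeR fit of all 18 libraries as the footprint change minus the RNA change. The fit called 3.90% of 12531 genes tested in SH2 (2.46% lower, 1.44% higher) and 0.686% in SH3 (0.311% lower, 0.375% higher). At an unadjusted p under 0.05 there were 0 members in SH2, where 17.9% of all genes passed that threshold, and 1 in SH3, TUBA1C, where 12.6% did. The DESeq2 Wald test called 0 members in both, against 5.49% and 2.12% of the 17017 genes. The members' log2 differences ran from -0.55 (TUBB3) to 0.48 (TUBA1A) in SH2, with SE from 0.17 to 0.38. In SH3 they ran from -0.50 (TUBA4A) to 0.38 (TUBA1C, edgeR adjusted p 0.393), with SE from 0.17 to 0.40. Differences of this size relative to their SE were not resolved, which does not show that the ratio stayed the same. TUBA4A in SH3 passed without SC replicate 1 (-0.87, adjusted p 0.0449), against 0.419 with all libraries.

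The ratio of footprint CPM to RNA CPM in SC differed between members. As the ratio of group means, TUBB had 1.99 in SC, 2.199 in SH2 and 1.99 in SH3, and TUBB4B 1.32, 1.17 and 1.23. TUBA1B had 0.476, 0.577 and 0.497, and TUBA1A 0.352, 0.486 and 0.337. No SD is given, because it is not settled that the replicate numbers pair RNA with footprint libraries. Same-numbered libraries deviated in opposite directions in replicates 1 and 2 of SC and SH2, but not in the others. Whether those numbers are crossed was not tested. In SC the ratio of group means exceeded that of 92.8% of 12519 genes for TUBB and of 91.7% for TUBB3, but of 26.5% for TUBA1B and 17.1% for TUBA1A. TTC5 lay at 54.4%. A ratio between genes depends on the coding share of each mRNA and on how reads shared by near-identical paralogs were counted, which is not given in the sources used here, so the order of the members is a description of these files.

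**Figure D3:**
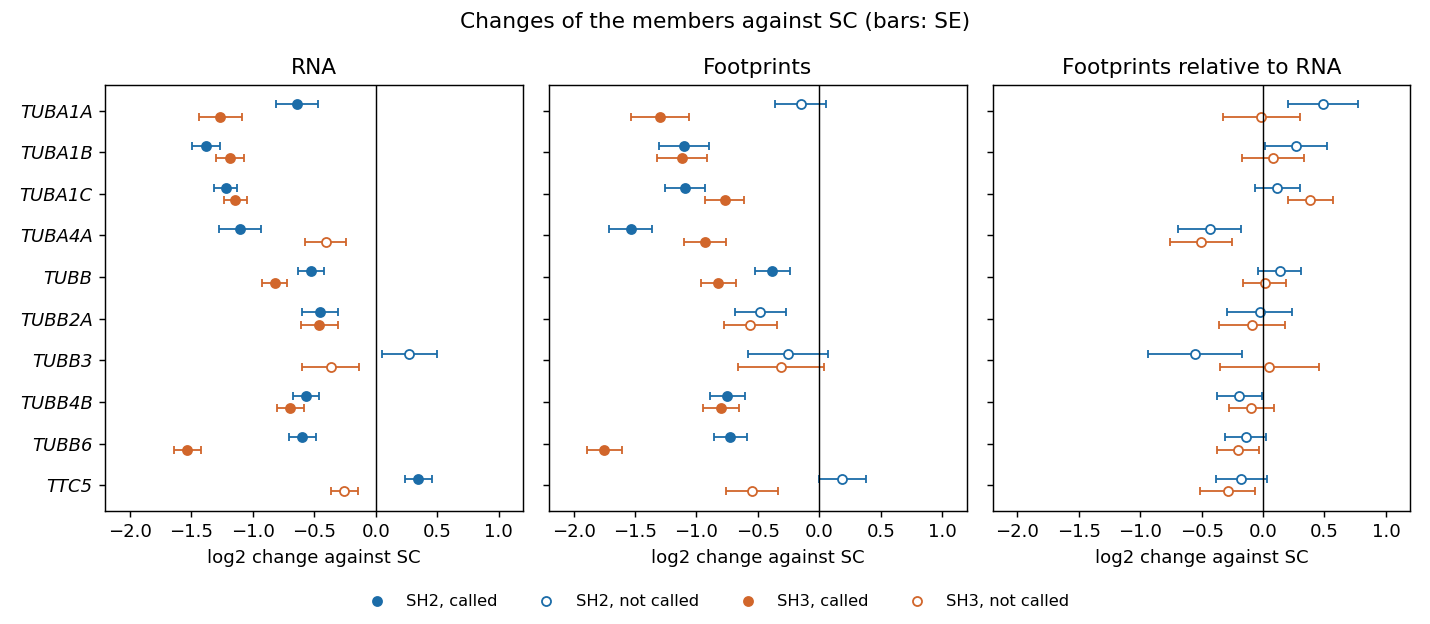
Log2 change against SC (horizontal axis) for each of the 10 genes, in RNA, in footprints and in footprints relative to RNA, for SH2 and SH3; bars are SE and filled points passed an adjusted p of 0.05. RNA and footprint points lie mostly left of 0, and no point in the ratio panel is filled.

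Because paralogs that are alike in sequence can share reads, the members were also summed by class. The sum does not depend on how reads shared among these members were divided. It would still lack shared reads that were discarded, and the treatment of such reads is not given. Summed alpha-tubulin RNA fell by 1.26 on the log2 scale in SH2 (SE 0.11, adjusted p = 3.88e-07 by edgeR) and by 1.12 in SH3 (SE 0.10, adjusted p = 2.28e-06 by edgeR). Summed beta-tubulin RNA changed by -0.54 ± 0.10 (edgeR, adjusted p = 0.000447) and -0.84 ± 0.10 (edgeR, adjusted p = 1.92e-05). In footprints the alpha sum changed by -1.11 ± 0.17 (edgeR, adjusted p = 9.05e-05) and -0.94 ± 0.17 (edgeR, adjusted p = 0.000514), and the beta sum by -0.45 ± 0.14 (edgeR, adjusted p = 0.0136) and -0.84 ± 0.14 (edgeR, adjusted p = 0.000253). Both classes fell with either hairpin in both measures. For footprints relative to RNA the alpha sum gave 0.14 ± 0.20 (edgeR, adjusted p = 0.779) and 0.18 ± 0.21 (edgeR, adjusted p = 0.775), and the beta sum 0.080 ± 0.17 (edgeR, adjusted p = 0.860) and 0.0077 ± 0.17 (edgeR, adjusted p = 1.000), none past the threshold. The beta footprint call in SH2 was lost without SC replicate 3 (-0.40, adjusted p 0.0603) or SH2 replicate 1 (-0.35, adjusted p 0.0767).

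Alpha-tubulin counts were lower relative to beta-tubulin counts in RNA of both hairpins. The ratio of summed alpha to summed beta counts was 0.656, 0.6502 and 0.671 in the SC RNA libraries, 0.418, 0.394 and 0.389 in SH2 and 0.534, 0.543 and 0.556 in SH3. No library of 1 group reached another, and SH2 was the lowest. In footprints the ratio was 0.225, 0.218 and 0.248 in SC, 0.123, 0.152 and 0.1596 in SH2 and 0.233, 0.214 and 0.202 in SH3, so SH2 lay below SC while SH3 overlapped it. With 3 libraries against 3, an exact permutation test cannot go below 0.10, and these ratios are given as a description.

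Within the classes, isotype shares of counts were followed first for TUBB6, TUBA1A and TUBA4A. These differed between the hairpins in both measures, as did TUBB, whose shares follow. TUBB6 made up 8.796% ± 0.303 of the beta counts in SC RNA, 8.48% ± 0.452 in SH2 and 5.44% ± 0.349 in SH3 (mean ± SD, n = 3), and in footprints 3.89% ± 0.262, 3.201% ± 0.0601 and 2.07% ± 0.185. TUBA1A made up 4.99% ± 1.29 of the alpha counts in SC RNA, 7.72% ± 0.512 in SH2 and 4.52% ± 0.485 in SH3. TUBA4A made up 5.73% ± 1.15, 6.37% ± 0.941 and 9.398% ± 0.121. In RNA, SH3 thus held the lowest share of TUBB6 and the highest of TUBA4A, and SH2 the highest of TUBA1A, each without overlap with SC. In footprints TUBA1A made up 2.98% ± 0.802, 5.57% ± 0.489 and 2.22% ± 0.271 of the alpha counts in SC, SH2 and SH3. TUBA4A made up 12.1% ± 2.23, 9.22% ± 1.64 and 12.2% ± 0.648. The SH2 share of TUBA1A lay above SC without overlap. Its SH3 share overlapped SC, as did the share of TUBA4A with either hairpin. TUBB held 68.2% ± 1.12, 68.9% ± 0.623 and 68.98% ± 0.718 of the beta counts in RNA, and these groups overlapped. TUBB4B held 22.2% ± 1.33, 21.7% ± 0.412 and 24.5% ± 0.519, with SH3 above both other groups. Footprint shares of TUBB ran from 76.1% to 81.1% in SC, 81.8% to 82.5% in SH2 and 78.9% to 79.98% in SH3. Those of TUBB4B ran from 14.31% to 18.8% in SC, 13.4% to 14.27% in SH2 and 17.1% to 18.1% in SH3. The SH2 share thus lay above SC for TUBB and below it for TUBB4B, without overlap, while SH3 lay within the SC range for both. RNA shares of other members also left the SC range. TUBA1B held 51.8% to 55.8% of the alpha counts in SC RNA and 48.1% to 51.5% in SH2, and its SH3 share overlapped SC. The RNA shares of TUBB2A in SH3 and of TUBB3 with either hairpin lay above SC. TUBA1C overlapped SC with either hairpin. In footprints TUBA1B, TUBA1C, TUBB2A and TUBB3 all overlapped SC.

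**Figure D4:**
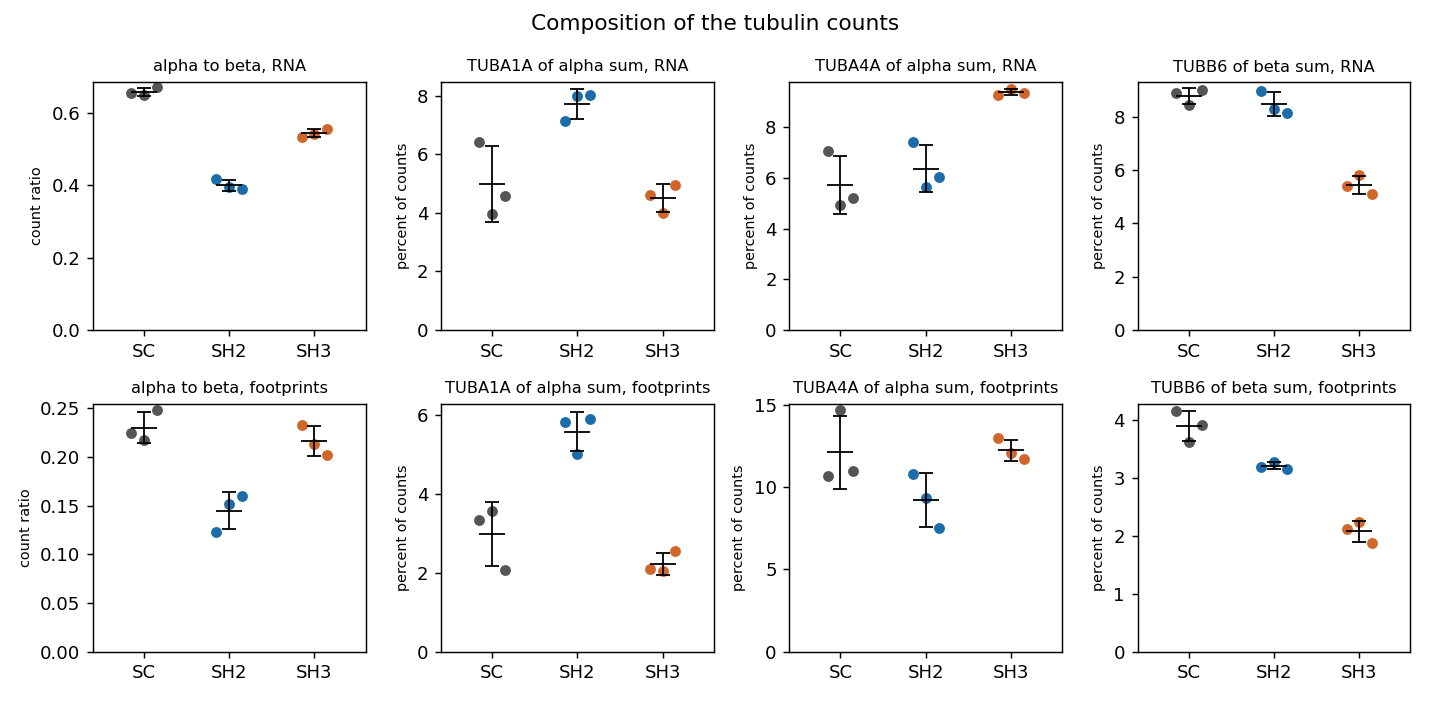
Ratio of summed alpha to summed beta counts, and the percent of the class sum taken by TUBA1A, TUBA4A and TUBB6, by library in RNA (top) and footprints (bottom); points are libraries, bars mean ± SD (n = 3), axes start at 0. The RNA ratio falls from SC to SH3 to SH2, and the TUBB6 share is lowest in SH3.

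The hairpins were compared directly for all members. In RNA, 6 of the 10 genes differed between SH2 and SH3, 5 of them higher in SH2 (TUBA1A, TUBB, TUBB3, TUBB6, TTC5) and 1 lower (TUBA4A), where 39.3% of all genes tested differed (18.9% higher, 20.4% lower). In footprints 5 differed, 4 higher in SH2 (TUBA1A, TUBB, TUBB6, TTC5) and 1 lower (TUBA4A), against 23.8% of genes (12.1% higher, 11.6% lower). In footprints relative to RNA edgeR called 0 members, against 0.0160% of all genes tested. There were 0 members at an unadjusted p under 0.05, against 11.7% of genes, and 0 in the DESeq2 Wald test, against 1.46% of the 17017 genes. Under each of 14 alternatives TUBB6 kept its call in both measures, as did TUBA1A in footprints and TUBA4A and TTC5 in RNA. The count in RNA fell to 3 without SH2 replicate 3 or without SH3 replicate 2, where TUBB6, TUBA4A and TTC5 remained. In footprints it was 3 without any 1 of SH2 replicates 1, 2 and 3 or SH3 replicates 1 and 3. In RNA the call of TUBA1A was lost without any 1 of SH2 replicate 3 or SH3 replicate 2 (adjusted p 0.0534 to 0.0620), that of TUBB without SH2 replicate 1, 3 or SH3 replicate 1, 2, 3 (adjusted p 0.0564 to 0.135), and that of TUBB3 without SC replicate 3 or SH2 replicate 1, 3 or SH3 replicate 1, 2, 3 (adjusted p 0.0501 to 0.153). In footprints TUBA4A lost its call without SH2 replicate 1, 3 or SH3 replicate 1, 3 (adjusted p 0.0561 to 0.0773), TUBB without SH2 replicate 2, 3 or SH3 replicate 1, 2 (adjusted p 0.0823 to 0.131), and TTC5 without SH2 replicate 1, 2 or SH3 replicate 3 (adjusted p 0.0523 to 0.0971).

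The other genes of the pathway were read from lists set by their function, beginning with the decay machinery. Their RNA counts stand beside the 30.4% of all genes lower and 31.1% higher in SH2, and 25.2% and 27.8% in SH3. Of SCAPER and 10 CCR4-NOT subunits, 7 of 11 fell and 1 rose in SH2 RNA, and 1 fell and 2 rose in SH3. CNOT6, one of the deadenylase subunits that shorten poly(A) tails, was the gene that fell with both hairpins, by log2 changes of -1.79 and -1.29 (edgeR adjusted p 3.20e-08 and 9.44e-07). SCAPER changed by -0.85 ± 0.16 (edgeR, adjusted p = 0.000381) in SH2 and -0.13 ± 0.16 (edgeR, adjusted p = 0.506) in SH3. None of the 11 passed the translational efficiency test in edgeR, with 2 at an unadjusted p under 0.05 in SH2 and 2 in SH3, near the 17.9% and 12.6% of all genes. The list median in RNA was -0.32 in SH2 and 0.014 in SH3.

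Of the tubulins outside the members, the gamma, delta and epsilon forms, which serve at centrosomes and centrioles, were all tested. TUBG1 changed in RNA by -0.45 and -0.34, TUBG2 by -0.43 and -0.71 and TUBE1 by -0.88 and -0.78 in SH2 and SH3, each called as lower with both hairpins. TUBD1 changed by 0.23 and 0.37 and rose in SH3 alone past the threshold, a difference between hairpins that the direct test did not call (edgeR adjusted p 0.441). Of 9 further alpha- and beta-tubulin genes 8 were in the table, and 2 passed the filter on low RNA counts. TUBAL3 rose by 1.96 and 2.48 from 3 to 14 counts per SC library. TUBB2B changed by -0.28 and -0.73, called in SH3. Its RNA counts were also few, with 46 to 52 per SC library, 31 to 49 in SH2 and 23 to 35 in SH3.

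New tubulin chains pass from prefoldin to the TRiC/CCT chaperonin and on to the tubulin cofactors, which join alpha and beta into the heterodimer. Of 12 prefoldin subunits, cofactors and ARL2, 5 fell and 2 rose in SH2 RNA, and 5 fell and 2 rose in SH3. Over all genes 61.4% and 53.0% passed, a share near that of this list. The changes called in both hairpins were largest for TBCA, the cofactor that holds beta-tubulin (-1.01 and -0.87), TBCC (0.95 and 0.62), VBP1, a prefoldin subunit (-1.005 and -0.48), and TBCE, the cofactor that holds alpha-tubulin (0.50 and 0.82), with TBCC and TBCE higher and TBCA and VBP1 lower. Of the 8 chaperonin subunits, 3 fell and 1 rose in SH2 and 1 fell and 1 rose in SH3. CCT2 rose in both (0.26 and 0.41). The list medians were -0.16 and -0.13 for the folding genes and -0.18 and 0.034 for the chaperonin, nearer to 0 than the tubulin medians.

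Of 15 genes of tubulin modification, 5 were lower and 1 higher in SH2 RNA, and 4 lower and 2 higher in SH3. The share lower was near the 30.4% and 25.2% of all genes. The share higher was below the 31.1% and 27.8% of all genes. TTL, which adds the terminal tyrosine back to alpha-tubulin, fell by log2 changes of -1.44 and -0.66. VASH2, a peptidase that removes it, changed by -2.01 and -1.53. VASH2 gave few RNA counts, with 22 to 25 per SC library, 5 to 9 in SH2 and 6 to 11 in SH3. TTLL7 changed by -0.81 and -1.53 and TTLL4 by 0.40 and 0.56, the last higher. Of 23 proteins that bind, track or sever microtubules, 9 fell and 9 rose in SH2 and 6 fell and 7 rose in SH3. STMN1, stathmin, which sequesters tubulin dimers, fell (-1.24 and -1.12), as did the depolymerising kinesin KIF2C (-1.29 and -1.04), while MAPRE3, a plus-end binding protein, and TPPP, which bundles microtubules, rose (1.11 and 0.78, and 1.64 and 1.73). For footprints relative to RNA, edgeR called 0 of the 76 genes tested in all these lists with either hairpin, with 14 in SH2 and 12 in SH3 at an unadjusted p under 0.05. Pooled over the lists, these shares are close to the 17.9% and 12.6% of all genes. The SH2 count was uneven, however. Of the 14 genes, 8 were among the 23 that bind, track or sever microtubules, and each other list held 0 to 2. In SH3, 2 of these 23 were at that threshold. DESeq2 was not read for these lists.

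**Figure D5:**
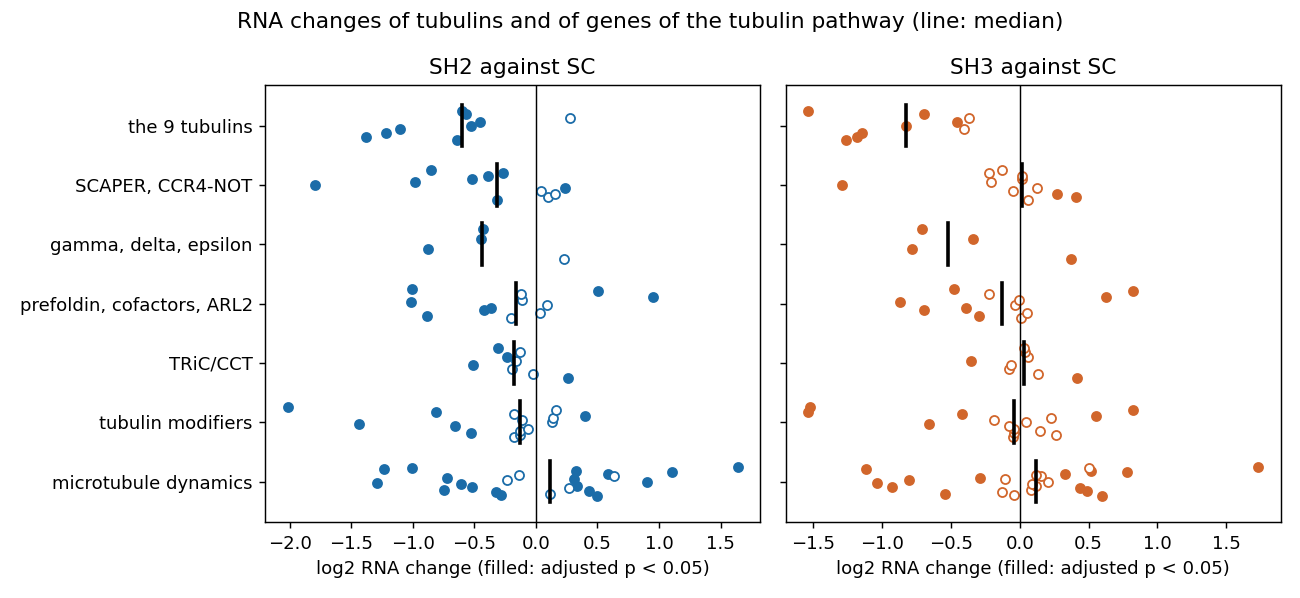
Log2 RNA change against SC (horizontal axis) of the 9 tubulins and of the genes of 6 pathway lists, in SH2 and SH3; each point is a gene, filled where the adjusted p was under 0.05, and the black line is the list median. The tubulin medians, -0.60 and -0.82, lie to the left of those of the other lists.

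Over the 9 RNA libraries, the genes whose log2 CPM followed TUBA1B most closely were PLCH1, WNT3 and TUBA1C (Pearson's r 0.995, 0.993 and 0.992), among 12709 others. For TUBB they were SLC25A23, DCLRE1B and CRACD (0.986, 0.985 and 0.984). The libraries share their groups, and the correlations are given as a description.

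The authors' deposited table gave the same directions. In it 8 members were lower and 1 higher in SH2 RNA at an adjusted p under 0.05, and 9 were lower in SH3. For footprints the authors' deposited table had 6 and 7 lower. The log2 changes of the authors' deposited table differed from those above by at most 0.042. The 2 further members lower in SH3 RNA in the authors' deposited table were TUBA4A (log2 -0.43, adjusted p 0.02998) and TTC5 (log2 -0.28, adjusted p 0.0484).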

How the data were processed

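Raw read counts per gene symbol and library were deposited by the authors in 1 table of the whole series. Its signal columns hold DESeq2-normalized values, per the file headers, and were not used for tests. Its log2 fold changes and p-values are the authors' DESeq2 comparisons with SC, per the file headers. Bowtie 1.2.2 and DESeq2 are named in the submitters' processing notes. The build, the annotation, the counting tool and the treatment of reads that match several places are not given in the sources used here. All 10 member symbols matched the human gene name table.

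The counts were tested in edgeR 4.0.16 (R 4.3.3) with filterByExpr, TMM scaling and glmQLFTest, with Benjamini-Hochberg adjustment over all genes tested. RNA and footprints each used 1 fit of 9 libraries, and their ratio 1 fit of 18. All tests were two-sided. SE is the absolute log2 change divided by the square root of F. The alternatives were DESeq2 1.42.0, DESeq2 size factors, no filter on low counts, blocks, only the groups compared and each replicate left out. The fits were tested on simulated data. Libraries of a group varied by 11.6% (IN) and 15.1% (RPF) as edgeR's biological coefficient of variation, and no pair of replicates agreed within counting noise. The number of counts limits the precision of low genes, and no molecular identifiers are described.

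Replicate numbers paired SC with SH2: deviations of same-numbered libraries from their group means correlated at 0.25 to 0.37 over genes. For pairs with SH3 the range was -0.13 to 0.47, and it depended on the number. Replicate 3 correlated with SH3 at 0.26 to 0.32, as high as SC with SH2. Replicate 2 correlated with it at -0.13 to 0.0051. Replicate 1 correlated with it at 0.24 and 0.47 in IN and at 0.017 and -0.0078 in RPF. Whether the SH3 numbers mark pairs is thus not settled by these values. IN and RPF libraries of 1 number correlated at -0.50 to -0.31 in replicates 1 and 2 of SC and SH2 and at 0.21 to 0.51 in the others. Whether those numbers are crossed was not tested, and footprint to RNA ratios are therefore given from group means.

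The named genes were all 10 members, FBL, up to 4 genes per pathway list (the largest mean absolute change among those called in the same direction by both hairpins), and the 3 genes most like TUBA1B and TUBB. Genes were also named beyond this rule: SCAPER, TUBD1, TUBB2B and the line markers. Members and lists were chosen with earlier results of these data known. Footprint density per coding length was planned and not computed, since no coding lengths were used here. The alpha to beta ratios, isotype shares and footprint to RNA ratios are therefore not corrected for coding length. Upstream sequences are from RefSeq (GRCh38.p14).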

Additional observations from a re-analysis of the deposited data

Results flagged for a closer look

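These results are listed because the effect of the 2 hairpins on the same gene differed in the direct test of SH2 against SH3 (edgeR adjusted p under 0.05, n = 3 each). Such a call is common, since 39.3% of all genes tested differed in RNA and 23.8% in footprints. As SH2 minus SH3 on the log2 scale, the RNA differences were 0.62 for TUBA1A, -0.70 for TUBA4A, 0.30 for TUBB, 0.64 for TUBB3, 0.94 for TUBB6 and 0.60 for TTC5. The footprint differences were 1.14 for TUBA1A, -0.61 for TUBA4A, 0.44 for TUBB, 1.03 for TUBB6 and 0.73 for TTC5. As given above, some of these calls were lost when 1 library was left out. They were those of TUBA1A, TUBB and TUBB3 in RNA and of TUBA4A, TUBB and TTC5 in footprints. The summed beta-tubulins differed by 0.30 in RNA and 0.39 in footprints. That call was lost in RNA without any 1 of SH2 replicate 1, 3 or SH3 replicate 1, 2, 3 (adjusted p 0.0602 to 0.136), and in footprints without SC replicate 3 or SH2 replicate 2, 3 or SH3 replicate 1, 2 (adjusted p 0.0589 to 0.181). FBL itself was at 5.67 ± 5.09 CPM in SH2 RNA and 3.49 ± 0.612 in SH3 (SD, n = 3 each), and its part in these differences was not tested.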

How the results depend on the processing

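No member and no class sum changed direction with a call under the alternatives run. With each replicate left out in turn, the members called between SH2 and SH3 numbered 3 to 6 in RNA and 3 to 5 in footprints, and those called for footprints relative to RNA in SH3 0 to 1. The summed beta-tubulins then ran from 0.21 to 0.42 between the hairpins in RNA, from 0.32 to 0.49 in footprints, and from -0.54 to -0.35 in SH2 footprints against SC, in part short of the threshold. In SH3 RNA the members called were 9 with the DESeq2 Wald test, with DESeq2 size factors, under the replicate block and where other groups were left out, and 8 when unfiltered, against 7. The replicate block gave 9 members in SH2 RNA and 6 in SH2 footprints, as without it, changed no other SH2 call against SC, and gave 9 in SH3 footprints in place of 7 (TUBB2A -0.56, adjusted p 0.0486, and TTC5 -0.55, adjusted p 0.0355). The lysate block left 0 members called in the ratio. Against SC, the alpha sum kept its direction and call in RNA and in footprints in every alternative run. The shallowest footprint library, with 1662705 counts, limits the members with few counts (TUBB3, TTC5, TUBA1A and TUBB2A).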

Other observations

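The deposited columns of the authors' measure named RD hold the same values for SH2 and SH3 in 17017 of 17017 genes. Across genes, which are not independent replicates, the RD log2 changes of the authors' deposited table correlated with the ratio changes computed here at Pearson's r = 0.858 in SH3 and 0.465 in SH2. The RD values were not used for any gene.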
